A study of Mus musculus with 12 samples.

Results

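The Notch pathway was described through 10 of its genes in muscle stem cells of mouse hind limb. They were the receptors Notch1, Notch2 and Notch3, the ligands Dll1 and Jag1, the DNA-binding factor Rbpj, and the target genes Hes1, Hey1, Hey2 and Heyl. The genes were taken by symbol, from a list chosen with earlier results of these data known. They were 10 of the 30154 genes in the deposited tables. All 10 had enough counts to be tested, among 15890 tested genes. Day 0 stands for quiescence, the resting state of these cells before injury.

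Bulk RNA sequencing was done on cells sorted by flow cytometry from tibialis anterior, gastrocnemius and quadriceps of C57BL/6J mice aged 2 to 3 months. The genotypes were Sestrin1,2 wild type and Sestrin1,2 knockout, and both Sestrins are known as proteins induced by stress. Cells came from muscle before injury, called day 0, and from muscle 7 and 21 days after injury, with 2 libraries for each of the 6 groups. The labels give no kind of injury, sorting markers, sex, batch or source animal, and do not say whether the knockout acts in the whole animal, so p-values measure the spread between libraries, which may be technical.

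Notch receptors are cut after a ligand on a neighbouring cell binds them, and the freed intracellular part enters the nucleus and joins the DNA-binding protein that Rbpj encodes. This complex turns on genes of the Hes and Hey families, which encode repressors of transcription. In resting muscle stem cells Notch signalling is known to be high and to be needed to keep the cells from differentiating. Notch3 and Heyl are also known to be active in mural cells, which wrap small blood vessels, and Notch ligands are made by several cell types of muscle.

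The genotype labels were first checked with Sesn2, one of the deleted genes. Sesn2 was at 75.1 and 84.4 CPM (read counts relative to the scaled library size) in wild type before injury, against 5.47 and 7.03 CPM in knockout. Wild type held 44.9 and 47.4 CPM at day 7 and knockout 2.36 and 1.92 CPM. At day 21 the libraries labelled wild type held 8.92 CPM in replicate 1 and 82.1 CPM in replicate 2, and those labelled knockout held 9.86 CPM in replicate 1 and 108 CPM in replicate 2. Sesn1 kept more of its RNA in knockout, at 45.8 and 46.0 CPM against 68.6 and 70.4 CPM in wild type before injury, and at 22.4 and 28.4 CPM against 67.9 and 84.0 CPM at day 7. At day 21 both replicates 1 had less Sesn1 RNA than both replicates 2, with 43.7 against 78.3 CPM under the wild-type label and 41.7 against 67.2 CPM under the knockout label. In CPM Sesn1 thus split the 4 libraries in the same way as Sesn2. The deposited batch-corrected log2 values do not show this split. Under the wild-type label Sesn2 was there at 10.1 in replicate 1 and 9.81 in replicate 2, and Sesn1 at 10.96 and 10.94. Under the knockout label Sesn2 was at 9.65 and 11.2, and Sesn1 at 10.79 and 11.02. The labels do not say which part of either gene is deleted. In CPM, Sesn2 goes against the labels of the library labelled wild type replicate 1 and the library labelled knockout replicate 2. For this reason day 21 was compared with the earlier days as the mean of both genotypes. That mean still uses the labels, since group levels and their spread are taken within the labelled groups. With the 4 libraries of day 21 fitted as 1 group, which needs no genotype label, no fold change of the 10 genes moved by more than 0.019 on the log2 scale. Each labelled group holds 2 libraries, so the 4 libraries weigh almost alike in both fits. The small move was thus fixed by the design and does not bear on the labels. Only the spread and the calls could change, and the Dll1 call from day 7 to day 21 was lost. Genotypes at day 21 are given by label, and also without both libraries.

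The labelled cell type was checked with lists of marker genes, as summed TPM, which is a level per gene length. The 8 satellite cell markers, among them Pax7, Myf5 and Calcr, were all detected in every group, with sums of 848 to 888 TPM in wild type at day 0 and 569 to 603 TPM in knockout. The 7 mural markers summed to more in every group, with 5000 to 5013 TPM in wild type and 7643 to 7657 TPM in knockout at day 0, where Acta2 alone reached 4695 to 7072 TPM. The 7 markers of fibro-adipogenic progenitors, the connective tissue cells of muscle, summed to between 8513 and 16150 TPM, with Dcn the highest at day 0. Glial markers summed to 584 to 801 TPM at day 0 and to 101 to 153 TPM at day 7, and endothelial markers to between 55.0 and 160 TPM in any group. Among immune markers Lyz2 reached 2027 to 3508 TPM at day 0, while the T cell gene Cd3e was at 0 in both genotypes. Skin markers summed to 258 to 277 TPM in wild type at day 0 and to 2.37 to 2.70 TPM in knockout, where Krt5, Krt14, Krt15 and Krt17 were at 0. The part of other cells in the Notch gene values was not tested, and in bulk RNA fewer cells of a type and less RNA per cell cannot be told apart. Total estimated counts were 28396862 to 38950614 per library, and log2 CPM of the 2 libraries of a group correlated across genes with r of 0.966 to 0.984.

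Each of the 10 genes is a protein-coding gene in GENCODE on GRCm38. Among the receptors, Notch1 lies at chr2:26457903-26516663 on the minus strand, Notch2 at chr3:98013527-98150361 on the plus strand and Notch3 at chr17:32120820-32166852 on the minus strand. The ligand genes are Dll1 at chr17:15367354-15376872 and Jag1 at chr2:137081456-137116644, both on the minus strand, and Rbpj lies at chr5:53466152-53657362 on the plus strand. The target genes are Hes1 at chr16:30064384-30067796 on the plus strand, Hey1 at chr3:8663359-8667256 and Hey2 at chr10:30832359-30842801 on the minus strand, and Heyl at chr4:123233556-123249875 on the plus strand. Exons of Notch1, Notch3 and Dll1 share 1068, 488 and 867 bases with annotated transcripts on the opposite strand, and Notch2 shares 541 exon bases with one on its own strand. None of those neighbours is in the table, and strand use in counting is not given in the sources used here, so their reads cannot be told apart. Rbpj counts are uncertain for another reason: the processed pseudogene Rbpj-ps3 matches 1441 bases of it at 99.7% identity and had 48.9 to 416 estimated counts of its own per library.

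RefSeq promoter sequences of GRCm38.p6, 250 bases before to 50 after the start of a transcript, were matched for 7 of the 10 genes. They are shown for the genes that the results turn on: Hey2, a target that fell after injury, and Notch1, Notch2 and Rbpj, which were higher together in knockout cells at day 0. The core of the RBPJ binding motif, TGGGAA, was searched on both strands, and capitals mark it or its reverse complement TTCCCA. It occurs in 25.6% of 32851 promoters of this length, and the longer GTGGGAA, which contains it, in 6.38%. The windows are chr10:30842734-30843033 on the minus strand for Hey2, chr5:53590096-53590395 on the plus strand for Rbpj, chr2:26503773-26504072 on the minus strand for Notch1 and chr3:98013288-98013587 on the plus strand for Notch2.
Hey2: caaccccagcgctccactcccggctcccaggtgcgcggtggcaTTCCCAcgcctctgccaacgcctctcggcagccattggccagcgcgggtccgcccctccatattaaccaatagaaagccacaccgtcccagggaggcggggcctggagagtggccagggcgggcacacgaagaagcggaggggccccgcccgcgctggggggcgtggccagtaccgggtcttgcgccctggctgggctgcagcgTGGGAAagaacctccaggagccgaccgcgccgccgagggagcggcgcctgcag
Rbpj: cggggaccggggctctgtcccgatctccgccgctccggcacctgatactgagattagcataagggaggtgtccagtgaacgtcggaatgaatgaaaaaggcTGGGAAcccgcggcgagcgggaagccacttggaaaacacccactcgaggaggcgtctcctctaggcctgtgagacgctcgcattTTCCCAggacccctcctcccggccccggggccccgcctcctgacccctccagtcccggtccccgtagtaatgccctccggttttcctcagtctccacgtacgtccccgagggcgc
Notch1: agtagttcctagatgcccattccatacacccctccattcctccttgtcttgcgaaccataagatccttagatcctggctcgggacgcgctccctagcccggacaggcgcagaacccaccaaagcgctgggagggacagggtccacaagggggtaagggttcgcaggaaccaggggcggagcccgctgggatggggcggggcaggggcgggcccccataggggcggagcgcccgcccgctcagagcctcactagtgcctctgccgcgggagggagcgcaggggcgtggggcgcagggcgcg
Notch2: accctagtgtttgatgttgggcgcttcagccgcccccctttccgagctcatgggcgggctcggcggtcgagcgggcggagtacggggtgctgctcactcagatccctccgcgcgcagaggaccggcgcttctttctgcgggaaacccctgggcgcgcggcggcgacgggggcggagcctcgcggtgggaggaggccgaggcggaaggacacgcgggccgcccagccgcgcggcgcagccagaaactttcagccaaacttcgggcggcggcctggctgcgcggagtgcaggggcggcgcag
Hey2 holds the core motif 2 times, both within GTGGGAA. Counted from the start, GTGGGAA spans -207 to -201 on the minus strand and -4 to 3 on the plus strand. Rbpj holds 2 core motifs, neither of them within GTGGGAA. Notch1 and Notch2, and also Notch3, Jag1 and Dll1, have no such letters in these windows. These matches describe the letters and were not measured as binding.

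Per gene length, Hes1 was the most abundant of the 10 genes in wild-type cells before injury and Notch2 the least. The wild-type level at day 0 was 229 ± 0.272 TPM (SD, n = 2) for Hes1, 92.95 ± 1.13 for Heyl, 47.3 ± 1.05 for Notch3 and 32.5 ± 0.796 for Hey1. Below these stood Notch1 at 12.95 ± 0.534 TPM, Jag1 at 11.5 ± 0.0627, Dll1 at 11.4 ± 0.694, Hey2 at 8.32 ± 0.036, Rbpj at 4.28 ± 0.534 and Notch2 at 2.93 ± 0.0626. Jag1 and Dll1 were the only neighbours in this order whose libraries overlapped. In knockout at day 0 Hes1 stayed first at 231 ± 5.16 TPM, while Notch3 at 100.5 ± 5.13 stood above Heyl at 78.5 ± 1.35, and Notch1 at 22.7 ± 1.81 above Hey1 at 18.9 ± 0.0727. Notch2 was last there too, at 6.96 ± 0.0306 TPM, and Dll1, Rbpj and Hey2 overlapped as neighbours.

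At day 7 Heyl stood first in both genotypes, at 109 ± 1.73 TPM in wild type and 88.0 ± 5.15 TPM in knockout, with Hes1 second at 59.5 ± 3.09 and 75.8 ± 8.03 TPM. Notch2 remained last, at 2.72 ± 0.224 and 2.38 ± 0.282 TPM, and in wild type it could not be separated from Hey2. Hey1 and Notch3 overlapped in wild type at day 7, as did Notch1 and Jag1 in both genotypes. At day 21 the 4 libraries spread more widely, from 40.1 to 123 TPM for Notch3 and from 84.8 to 137 TPM for Heyl, and Heyl, Hes1 and Notch3 held the first places in both labelled groups. Hey2 was last in both at day 21, below Notch2.

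**Figure D1:**
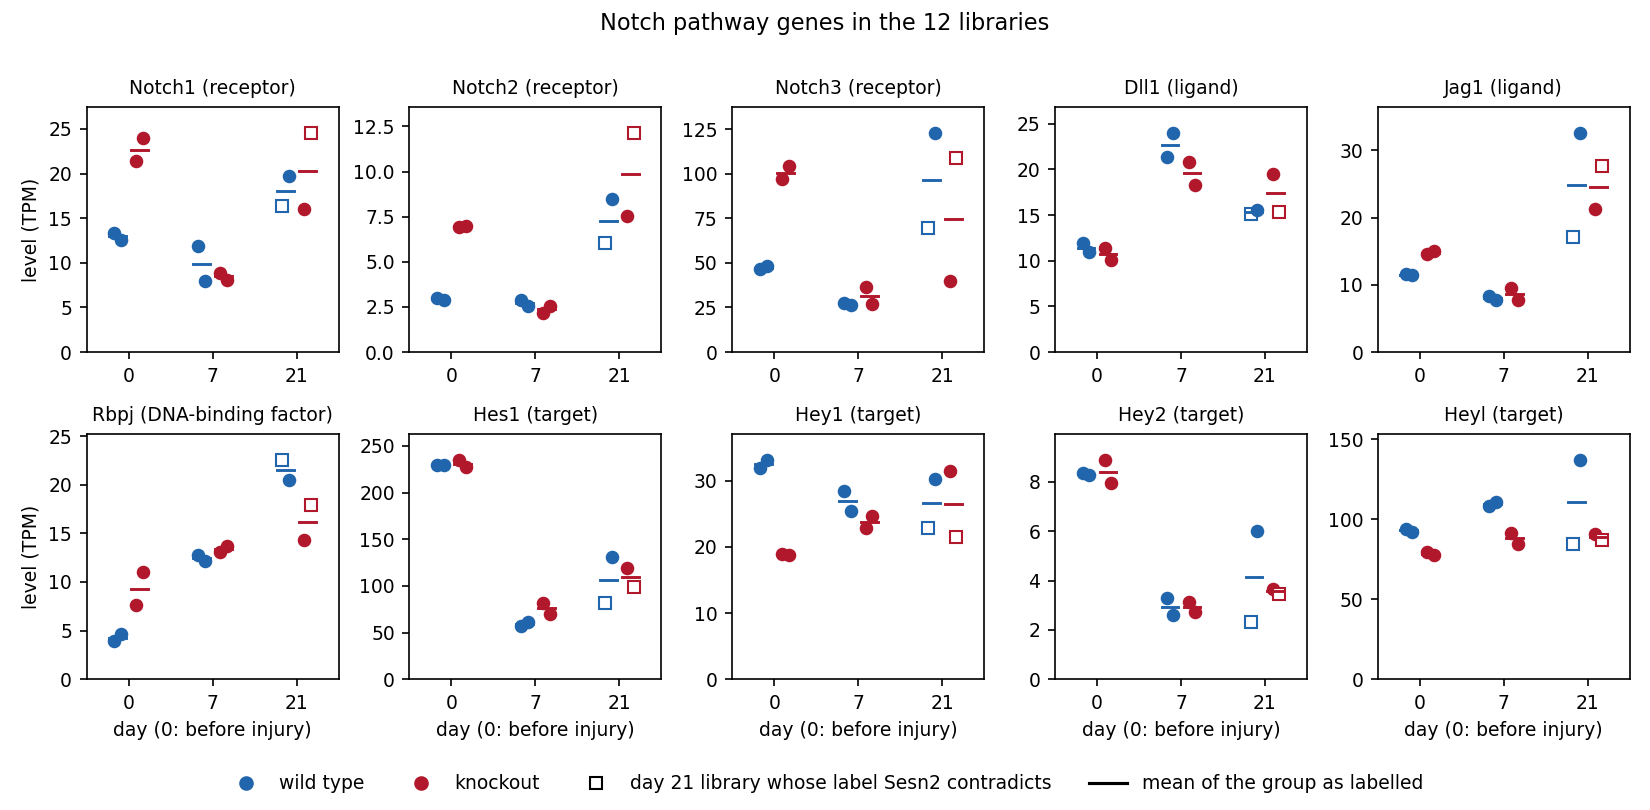
Level of each of the 10 genes (TPM, vertical axis, starting at 0) in each of the 12 libraries by day and labelled genotype, with the mean of the group as a bar and open squares for the day 21 libraries whose label Sesn2 contradicts. Hes1 falls from 227 to 235 TPM at day 0 to 57.3 to 81.5 TPM at day 7 in all 8 libraries, while Notch1, Notch2 and Notch3 are separated by genotype at day 0 and lie close together at day 7.

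The first comparison asked what changed between resting muscle and day 7, in the midst of repair. In wild type, 7 of the 10 genes changed, 5 downward and 2 upward. Hes1 and Hey2, repressors of differentiation genes, fell most, and Notch1, Jag1 and Hey1 fell less. Rbpj and Dll1 rose. Across all tested genes 47% were called in this comparison, 25.8% higher and 21.2% lower, so the share among the 10 is read against that. The median log2 fold change was -0.63 over the 10 genes and 0.06 over all tested genes. A call means an adjusted p under 0.05 in the edgeR quasi-likelihood test, adjusted by Benjamini-Hochberg over all 15890 genes.

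Among the receptors, Notch1 had 87.5 and 80.7 CPM in wild type before injury and 54.7 and 50.8 CPM at day 7. Both day 7 libraries lay below both day 0 libraries, with a log2 fold change of -0.67 ± 0.14 (SE, adjusted p = 0.00257). With limma on log2 TPM the Notch1 change was -0.38 to -0.41 and did not pass (adjusted p from 0.164 to 0.247). On that scale the median over all tested genes was 0.24 to 0.28 with a filter on TPM and 0.05 without one, against 0.06 with edgeR. Notch2 was at 26.0 and 25.4 CPM before and 21.8 and 19.0 CPM after, without overlap, but the change of -0.33 ± 0.19 did not pass the test (adjusted p = 0.177). Notch3 had 308 and 321 CPM before and 156 and 149 CPM after. Its groups are far apart, with a log2 fold change of -1.04 ± 0.39 that missed the threshold narrowly (adjusted p = 0.0535). The error of Notch3 is shared with the day 21 libraries, which spread widely: without the library labelled knockout replicate 1 of day 21, or without replicate 2, the adjusted p was 0.00247, and when days 0 and 7 were fitted without day 21 it was 7.71e-05. Notch3 also passed with DESeq2 (adjusted p = 0.0239), with its size factors (0.0454), with at least 10 counts in every library (0.0452) and with limma on the deposited log2 values (0.00392). It did not pass with limma on log2 TPM, with a replicate block or without a filter on low counts. Among these fits the Notch3 change was as small as -0.79 and the adjusted p as high as 0.19. Notch2 was called in the fit without day 21 (log2 fold change -0.38, adjusted p = 0.021).

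The ligands moved in opposite directions. Dll1, the ligand that differentiating myogenic cells are known to present, had 23.9 and 23.7 CPM before and 39.0 and 38.2 CPM after. It rose by a log2 fold change of 0.70 ± 0.13 (adjusted p = 0.00145). Jag1 was at 52.6 and 51.8 CPM before and 32.0 and 29.6 CPM after, a change of -0.76 ± 0.22 (adjusted p = 0.0181). This call was lost when either wild-type library of day 0 or either of day 7 was left out, with adjusted p between 0.0549 and 0.0964, and with limma on log2 TPM, where the change was -0.48 to -0.52 (adjusted p from 0.122 to 0.208). Rbpj, the DNA-binding partner of all Notch receptors, went from 17.2 and 20.7 CPM to 48.8 and 45.6 CPM. It rose 2.49-fold, a log2 fold change of 1.32 ± 0.18 (adjusted p = 0.000223).

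Of the target genes, Hes1 went from 214 and 205 CPM to 40.3 and 45.2 CPM in wild type. This was the largest change among the 10 genes, a 4.91-fold fall with a log2 fold change of -2.30 ± 0.19 (adjusted p = 1.02e-05). Hey2 was at 16.1 and 16.1 CPM before and at 5.48 and 4.24 CPM after, a log2 fold change of -1.73 ± 0.32 (adjusted p = 0.00153). Hey1 was at 56.9 and 58.5 CPM before and at 40.8 and 36.0 CPM after, a log2 fold change of -0.59 ± 0.16 (adjusted p = 0.0136). The Hey1 call was lost without wild-type replicate 2 of day 0 or of day 7, with adjusted p of 0.0608 and 0.0979, and with limma on log2 TPM, where the change was -0.26 to -0.27 (adjusted p from 0.247 to 0.331). On the deposited batch-corrected log2 values the Hey1 change of -0.48 did not pass either (limma, adjusted p = 0.0551). Heyl was at 303 and 323 CPM before and 337 and 336 CPM after, a difference of 0.11 ± 0.14 with a 95% interval of -0.20 to 0.41. In wild type the 2 libraries of one day did not overlap those of the other for any of the 10 genes, as for 79.6% of all tested genes.

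The same comparison in knockout cells called 7 of the 10 genes, 6 downward and 1 upward, where 46.9% of all tested genes were called, 24.7% higher and 22.2% lower. All 3 receptors fell, together with Jag1, Hes1 and Hey2, and Dll1 rose. Rbpj, Hey1 and Heyl did not pass the test. The median log2 fold change was -1.18 over the 10 genes and 0.03 over all tested genes.

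In knockout cells Notch1 had 117 and 142 CPM before injury and 50.7 and 45.2 CPM after it, a log2 fold change of -1.44 ± 0.14 (adjusted p = 1.96e-05). Notch2 fell from 58.1 and 59.6 CPM to 16.8 and 20.1 CPM, by 1.68 ± 0.19 on the log2 scale (adjusted p = 6.1e-05). Notch3 was at 614 and 673 CPM before and at 211 and 159 CPM after, a log2 fold change of -1.80 ± 0.39 (adjusted p = 0.00535). For each receptor both day 7 libraries lay well below both day 0 libraries.

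Dll1 went from 18.5 and 17.9 CPM in knockout to 43.9 and 36.2 CPM, a log2 fold change of 1.14 ± 0.13 (adjusted p = 6.1e-05). Jag1 was at 63.1 and 64.7 CPM before and at 37.6 and 30.0 CPM after, a change of -0.92 ± 0.22 (adjusted p = 0.007) that was lost without knockout replicate 2 of day 7 (adjusted p = 0.0614). The Jag1 call in knockout was also lost with limma on log2(TPM + 1) without a filter (-0.72, adjusted p = 0.0676). Hes1 fell from 193 and 200.0 CPM to 56.7 and 48.2 CPM, by 1.91 ± 0.19 (adjusted p = 2.38e-05), and Hey2 from 16.4 and 14.95 CPM to 5.31 and 4.71 CPM, by 1.64 ± 0.32 (adjusted p = 0.00196). The fall of these repressor genes thus passed the test in each genotype, and their day 7 libraries lay below all day 0 libraries.

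Rbpj in knockout had 32.1 and 46.8 CPM before injury, which is a wide pair, and 50.7 and 53.5 CPM after it. Its log2 fold change of 0.40 ± 0.18 did not pass (adjusted p = 0.0855). Without knockout replicate 2 of day 0 it was 0.67 and passed (adjusted p = 0.0179), as did 0.50 and 0.54 with limma on log2 TPM with a filter (adjusted p = 0.0407 and 0.0417). Hey1 was at 32.6 and 31.7 CPM before and 35.5 and 38.6 CPM after, a difference of 0.20 ± 0.16 (adjusted p = 0.345). Heyl was at 274 and 272 CPM before and 289 and 256 CPM after, with overlapping libraries and a 95% interval of -0.31 to 0.31. The other 9 genes did not overlap between the days, nor did 76.1% of all tested genes.

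The markers moved as well between day 0 and day 7. The 8 cycling cell markers rose in both genotypes, from 60.7 to 63.9 TPM to 540 to 584 TPM in sum in wild type and from 18.9 to 20.2 TPM to 595 to 601 TPM in knockout. All 6 measured myocyte markers, genes of differentiating muscle such as Myog and Acta1, rose in both genotypes as well, to sums of 3117 to 4364 TPM. Of the 7 mural markers 3 fell and 2 rose in wild type, and 4 fell and 1 rose in knockout, with sums of 2151 to 2152 and 3146 to 3148 TPM at day 7. All 4 glial markers, among them Sox10, fell in both genotypes. Of the 7 fibro-adipogenic markers 2 rose and 3 fell in each genotype, with Dcn and Gsn lower and Lum and Col1a1 higher. The immune marker sum was 2031 to 3513 TPM at day 0 and 345 to 509.6 TPM at day 7, and Lyz2, which made up nearly all of it at day 0, fell in both genotypes. Of the 5 tested immune markers 3 rose in wild type and 4 in knockout, Ptprc and C1qa among them. Of the 6 skin markers 5 fell in wild type, while in knockout 2 rose and 4 did not pass. Of the 8 satellite cell markers 3 rose and 1 fell in wild type, and 5 rose and 1 fell in knockout. Of the 7 endothelial markers 2 fell in knockout, and in wild type none passed in edgeR, with 1 at an unadjusted p under 0.05. The part of these shifts in the Notch gene values was not tested.

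**Figure D2:**
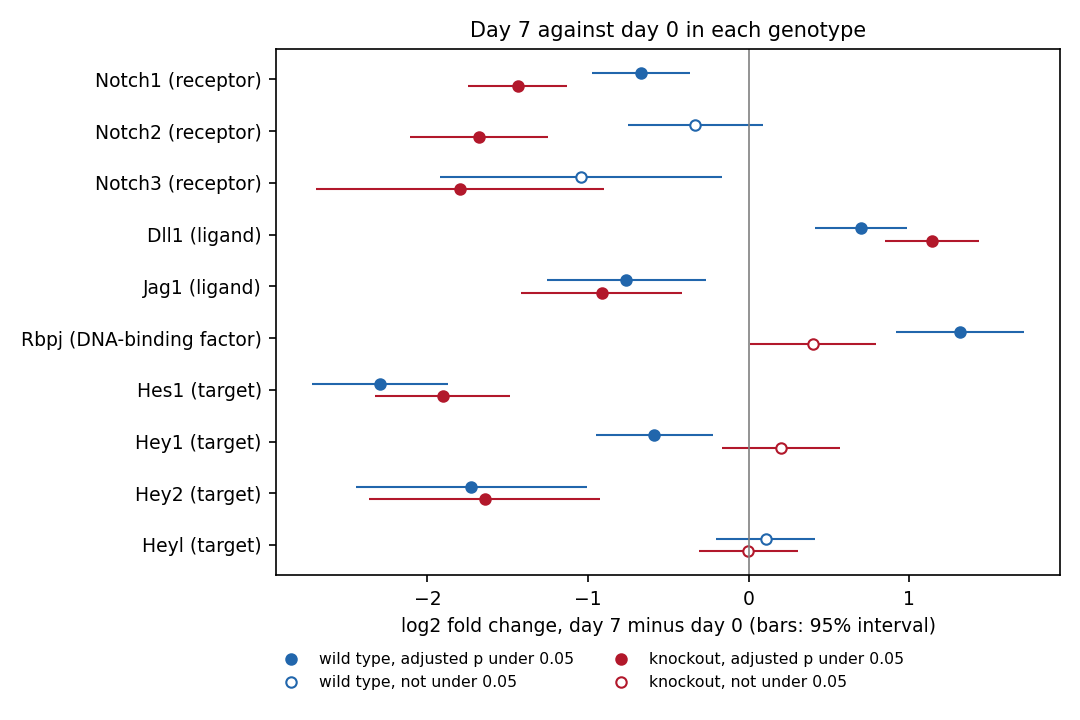
Log2 fold change from day 0 to day 7 (horizontal axis) for each of the 10 genes in wild type and in knockout, with 95% intervals as bars and filled points for an adjusted p under 0.05. Hes1 and Hey2 lie left of 0 in both genotypes, whereas Notch1 and Notch2 lie further left in knockout and Rbpj further right in wild type.

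The second comparison set knockout against wild type in resting cells. At day 0, 5 of the 10 genes differed between the genotypes, where 27.4% of all tested genes were called, 14.8% higher and 12.6% lower. Notch1, Notch2 and Rbpj were higher in knockout, and Dll1 and Hey1 were lower. Hes1 and Hey2, the targets that fell most after injury, did not pass the test. Medians over the 10 genes and over all tested genes were 0.13 and 0.002 on the log2 scale.

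Notch1, at 117 and 142 CPM in knockout, stood above the wild-type libraries at 87.5 and 80.7 CPM, with a log2 fold change of 0.63 ± 0.14 (adjusted p = 0.00834). The call was lost without replicate 2 of the knockout or of the wild type at day 0, with adjusted p of 0.0742 and 0.0623, and with limma on log2(TPM + 1) without a filter (0.76, adjusted p = 0.0561). Notch2, at 58.1 and 59.6 CPM against 26.0 and 25.4 CPM, was 2.29-fold higher in knockout (log2 fold change 1.20 ± 0.19, adjusted p = 0.002). Notch3, at 614 and 673 CPM against 308 and 321 CPM, was 2.05-fold higher by estimate, but its log2 fold change of 1.03 ± 0.38 missed the threshold (adjusted p = 0.0782). Leaving out the library labelled knockout replicate 1 or replicate 2 of day 21 brought this to 0.00603, and the fit without day 21 to 0.000379. Notch3 passed with DESeq2 (adjusted p = 0.0492) and with limma on the deposited log2 values (0.0189). It did not pass with the size factors of DESeq2, with other filters on counts, with a replicate block or with limma on log2 TPM. For every receptor, both knockout libraries were above both wild-type libraries.

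Rbpj was at 32.1 and 46.8 CPM in knockout against 17.2 and 20.7 CPM in wild type, 2.08-fold higher with a log2 fold change of 1.06 ± 0.18 (adjusted p = 0.00267). Jag1, at 63.1 and 64.7 CPM against 52.6 and 51.8 CPM, did not pass the test (log2 fold change 0.29 ± 0.22, adjusted p = 0.359). Dll1, at 18.5 and 17.9 CPM against 23.9 and 23.7 CPM, was lower by 0.39 ± 0.13 on the log2 scale, just past the threshold (adjusted p = 0.0495). Its TPM values, at 11.4 and 10.1 in knockout and 11.9 and 10.95 in wild type, overlap between the genotypes. The call was lost without any one of the 4 day 0 libraries, either wild-type library of day 7 or the library labelled wild type replicate 1 of day 21, with adjusted p between 0.0514 and 0.218. With limma on log2 TPM the Dll1 difference was -0.08 to -0.09 (adjusted p from 0.709 to 0.809), and on the deposited log2 values it was -0.13 (adjusted p = 0.526). The edgeR call was lost without a filter on low counts (adjusted p = 0.0693).

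Hey1 was at 32.6 and 31.7 CPM in knockout and at 56.9 and 58.5 CPM in wild type, 1.79-fold lower in knockout with a log2 fold change of -0.84 ± 0.16 (adjusted p = 0.00498). The other targets did not pass. Hes1 differed by -0.09 ± 0.18 on the log2 scale, with a 95% interval of -0.50 to 0.31, Hey2 by -0.04 ± 0.31, with an interval of -0.73 to 0.65, and Heyl by -0.20 ± 0.14, with an interval of -0.50 to 0.11. The fit without day 21 called Heyl lower in knockout (log2 fold change -0.21, adjusted p = 0.0334), as did limma on the deposited log2 values (-0.34, adjusted p = 0.0394). In CPM, 9 of the 10 genes showed no overlap between the genotypes, as did 75.1% of all tested genes.

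Marker genes differed between the genotypes at day 0 too. Of the 7 mural markers 4 were higher in knockout and none was called lower: Pdgfrb by 1.09 ± 0.18, Cspg4 by 1.32 ± 0.26, Myh11 by 0.97 ± 0.15 and Acta2 by 0.53 ± 0.13 on the log2 scale, with adjusted p from 0.00166 to 0.0144. Of the 8 satellite cell markers 6 were lower in knockout, as were 7 of the 8 cycling markers and all 6 skin markers. Of the 6 measured myocyte markers 2 were lower, and of the 7 fibro-adipogenic markers 1. Of the 4 glial markers 1 was higher, and of the 7 endothelial markers 1. None of the 5 tested immune markers was called, with Lyz2 at 3401 to 3508 TPM in knockout and 2027 to 2043 TPM in wild type. Glial sums were 789 to 801 TPM in knockout and 584 to 616 TPM in wild type. In the same libraries, the part of these differences in the receptor values was not tested.

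**Figure D3:**
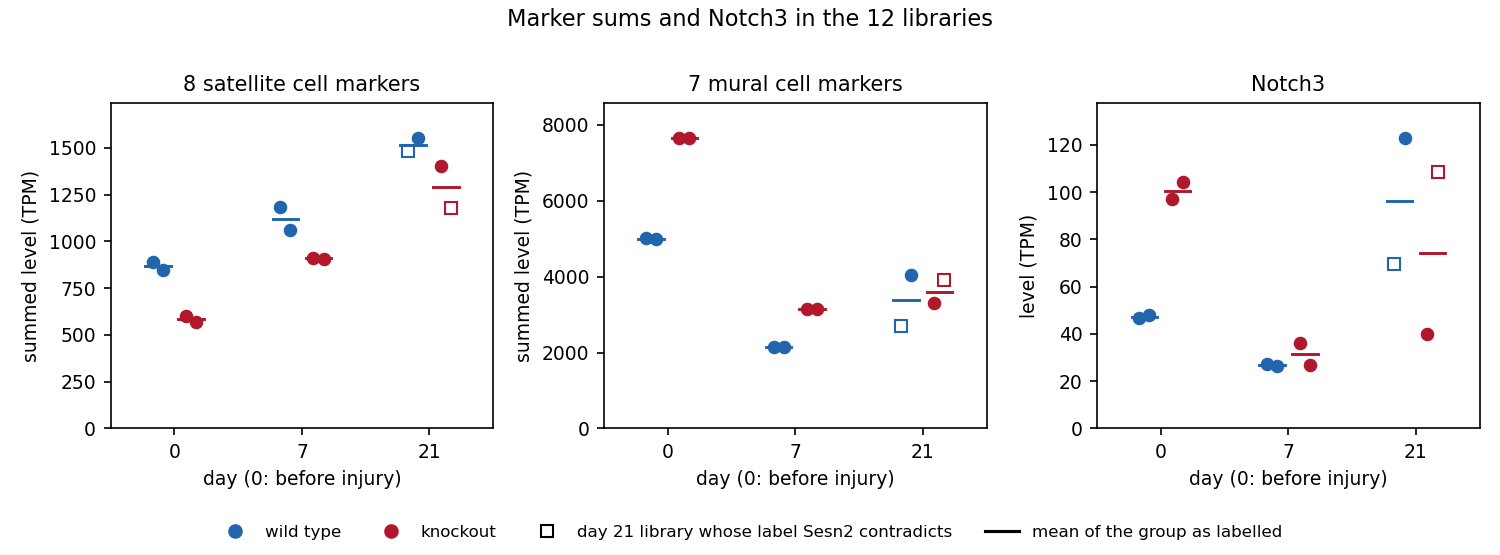
Summed level of 8 satellite cell markers, summed level of 7 mural markers and the level of Notch3 (TPM, each axis starting at 0) in the 12 libraries by day and labelled genotype. At day 0 the knockout libraries are lower for satellite markers, at 569 to 603 TPM, and higher for mural markers and Notch3, and mural markers and Notch3 are lower at day 7 than at day 0 in both genotypes.

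At day 7 none of the 10 genes was called between the genotypes, where 1.76% of all tested genes were. The differences lay between -0.30 ± 0.14 for Heyl (adjusted p = 0.359) and 0.30 ± 0.18 for Hes1 (adjusted p = 0.524) on the log2 scale. With edgeR the count at an unadjusted p under 0.05 was also 0, beside 14.3% of all tested genes. DESeq2 and limma called 0 of the 10 at an adjusted p under 0.05, while the fit without day 21 called Heyl (log2 fold change -0.31, adjusted p = 0.0273). Notch2, which differed 2.29-fold at day 0, had a 95% interval of -0.57 to 0.27 at day 7, and Rbpj one of -0.25 to 0.53. No overlap between the genotypes was seen for 5 of the 10 genes, as for 47.4% of all tested genes.

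Whether the change after injury itself differed between the genotypes was tested with an interaction term, the knockout change minus the wild-type change. It rests on the same 8 libraries as the comparisons above. The term passed for 4 of the 10 genes, where 13.5% of all tested genes were called, 6.08% higher and 7.39% lower. Notch1, Notch2 and Rbpj had a lower change in knockout and Hey1 a higher one.

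Notch2 differed most, with an interaction of -1.34 ± 0.27 on the log2 scale (adjusted p = 0.013), from a fall of 1.68 in knockout against a change of -0.33 in wild type. Rbpj had an interaction of -0.91 ± 0.25 (adjusted p = 0.0383), Notch1 of -0.76 ± 0.19 (adjusted p = 0.0298) and Hey1 of 0.79 ± 0.23 (adjusted p = 0.049). Notch3 had an interaction of -0.75 ± 0.54 that did not pass (adjusted p = 0.4), and Dll1 one of 0.45 ± 0.18 (adjusted p = 0.137), which was -0.12 with limma on log2 TPM. For Hes1 the interaction was 0.39 ± 0.26, for Hey2 0.08 ± 0.45, for Heyl -0.11 ± 0.20 and for Jag1 -0.16 ± 0.31, none past the threshold.

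With a library left out many of these calls were lost, while the fold changes kept their sign. They ranged from -1.48 to -1.22 for Notch2 and from -0.90 to -0.63 for Notch1. For Rbpj they ranged from -1.17 to -0.63 and for Hey1 from 0.695 to 0.88. The Notch2 call was lost without wild-type replicate 1 of day 7 (adjusted p = 0.053). The Notch1 call was lost without 6 of the 8 libraries of days 0 and 7, kept without knockout replicate 1 of either day, with adjusted p between 0.0691 and 0.111. The Rbpj call was lost without 7 of the 8, all but knockout replicate 1 of day 0 (0.0702 to 0.144), and the Hey1 call without each of the 8 (0.0757 to 0.158). With limma on log2(TPM + 1) Notch1, Rbpj and Hey1 did not pass (adjusted p = 0.0845, 0.0588 and 0.175), and without a filter Notch2 did not either (adjusted p = 0.0694). On the deposited log2 values Notch1 and Hey1 did not pass (adjusted p = 0.075 and 0.11). With days 0 and 7 fitted without day 21, 6 of the 10 genes passed, Notch3 and Hes1 in addition. In that fit 3887 of 15672 tested genes were called, a larger share than in the main fit.

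**Figure D4:**
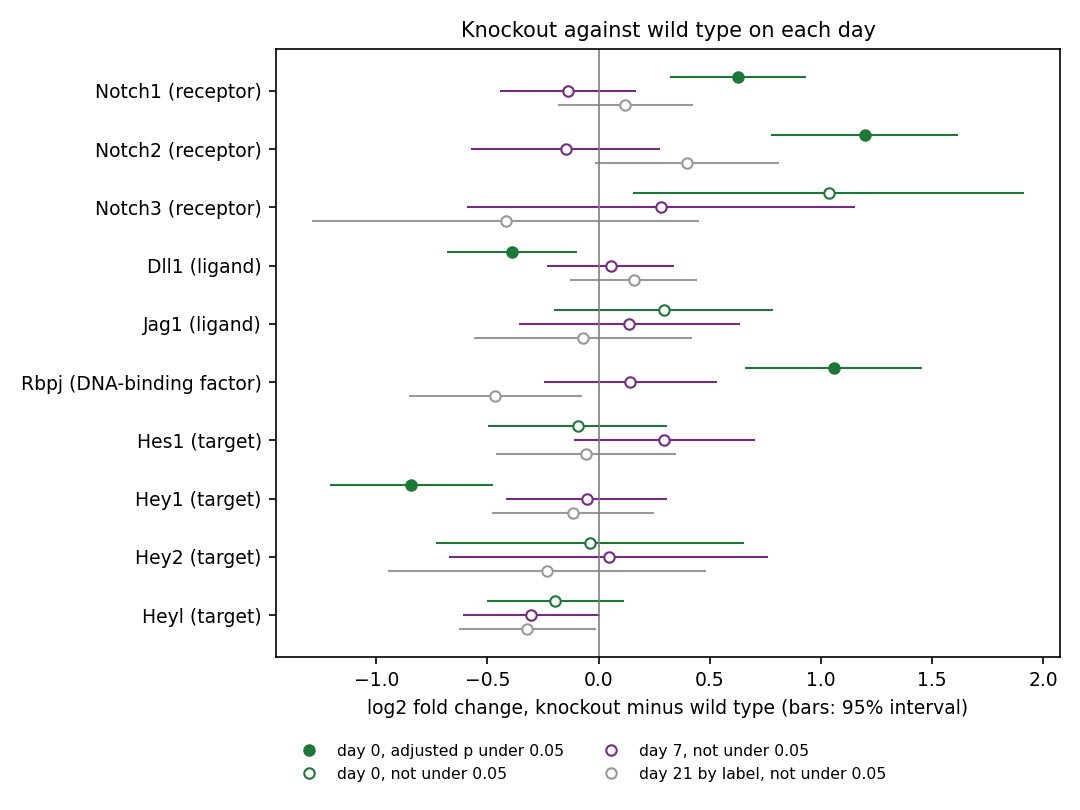
Log2 fold change of knockout against wild type (horizontal axis) for each of the 10 genes at day 0, day 7 and, by label, day 21, with 95% intervals as bars and filled points for an adjusted p under 0.05. Notch1, Notch2 and Rbpj are to the right and Dll1 and Hey1 to the left of 0 at day 0, and no gene is called at day 7 or day 21.

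By day 21 the receptors and Jag1 stood above their day 7 levels again. Between day 7 and day 21, as the mean of both genotypes, 7 of the 10 genes changed, 6 upward and 1 downward, where 56.8% of all tested genes were called, 28.4% in each direction. Notch1, Notch2, Notch3, Jag1, Rbpj and Hes1 rose. Dll1 fell by a small amount, and Hey1, Hey2 and Heyl did not pass. The 4 libraries of one day did not overlap those of the other for 6 of the 10 genes, as for 46.4% of all tested genes. The median log2 fold change was 0.71 over the 10 genes and 0.008 over all tested genes.

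Notch2 was at 61.8 and 92.3 CPM in the libraries labelled knockout and at 51.3 and 65.7 CPM in those labelled wild type, all above the 16.8 to 21.8 CPM of day 7. It rose 3.46-fold, a log2 fold change of 1.79 ± 0.14 (adjusted p = 2.93e-06). Notch1, at 86.6 and 105 CPM and at 81.0 and 95.5 CPM, rose by 0.87 ± 0.10 (adjusted p = 3.15e-05). Notch3 was at 248 and 625 CPM in the libraries labelled knockout and at 449 and 718 CPM in those labelled wild type. These 4 Notch3 values are spread widely but all exceed those of day 7, and the log2 fold change was 1.59 ± 0.28 (adjusted p = 0.00117).

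Jag1, at 88.0 and 107 CPM and at 74.8 and 131 CPM, rose 3.10-fold, by 1.63 ± 0.16 (adjusted p = 1.62e-05). Rbpj, at 59.2 and 68.6 CPM and at 96.6 and 79.8 CPM, rose further from day 7, by 0.60 ± 0.12 (adjusted p = 0.00194). Hes1, at 92.7 and 71.0 CPM and at 68.4 and 102 CPM, rose by 0.82 ± 0.13 (adjusted p = 0.000368), with every day 21 library above every day 7 library. Dll1, at 38.8 and 31.7 CPM and at 32.2 and 31.0 CPM, overlapped with day 7, and its log2 fold change of -0.24 ± 0.09 was just past the threshold (adjusted p = 0.0451). The Dll1 call was lost when any one library was left out except knockout replicate 2 of day 7 and the library labelled knockout replicate 1 of day 21, with adjusted p between 0.0654 and 0.213. It was also lost with the 4 libraries of day 21 fitted as 1 group (adjusted p = 0.0555), with DESeq2 (0.0643), with its size factors (0.0626) and without a filter on low counts (0.0996). Without the library labelled knockout replicate 2 of day 21 the Dll1 change was -0.14.

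The remaining targets depended on the doubtful libraries. Hey2, at 6.57 and 5.82 CPM and at 4.34 and 10.2 CPM, changed by 0.44 ± 0.23 (adjusted p = 0.123), and by 0.71 (adjusted p = 0.00165) without the library labelled wild type replicate 1. Hey2 also passed with limma on the deposited log2 values (0.36, adjusted p = 0.0419). Hey1, at 47.2 and 32.2 CPM and at 39.8 and 46.0 CPM, changed by 0.13 ± 0.12 (adjusted p = 0.368), and by 0.28 (adjusted p = 0.0187) without the library labelled knockout replicate 2. Heyl, at 287 and 266 CPM and at 287 and 403 CPM, changed by 0.03 ± 0.10 (adjusted p = 0.823). Leaving out both libraries whose labels Sesn2 contradicts leaves 1 library in each labelled group of day 21. The changes were then 0.33 for Hey1, 0.75 for Hey2, 0.19 for Heyl and -0.16 for Dll1.

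Against day 0, 6 of the 10 genes differed at day 21, where 45.9% of all tested genes were called, 25% higher and 20.8% lower. As the mean of both genotypes, Notch2, Dll1, Jag1 and Rbpj were higher than before injury, and Hes1 and Hey2 were lower. Rbpj was 2.75-fold higher (log2 fold change 1.46 ± 0.13, adjusted p = 1.6e-05), Notch2 1.73-fold (0.79 ± 0.13, adjusted p = 0.00086), Jag1 1.73-fold (0.79 ± 0.16, adjusted p = 0.00236) and Dll1 1.60-fold (0.68 ± 0.09, adjusted p = 0.000223). Hes1 was 2.43-fold lower (-1.28 ± 0.13, adjusted p = 4.19e-05) and Hey2 2.37-fold lower (-1.24 ± 0.23, adjusted p = 0.00137). For both repressor genes all 4 libraries of day 21 lay below all 4 of day 0. In all, 5 of the 10 genes did not overlap between these days, as for 30.6% of all tested genes. Of the called genes only Notch2 overlapped. Its level in the library labelled wild type replicate 1 of day 21, 51.3 CPM, lay below both knockout libraries of day 0. Mean Notch2 before injury was 25.7 CPM for wild type, against 58.9 CPM for knockout. The labelled groups of day 21 had means of 58.5 CPM (wild type) and 77.0 CPM (knockout). By label, the Notch2 rise was thus larger for wild type. Notch1 differed by -0.18 ± 0.10, Notch3 by 0.17 ± 0.27 and Hey1 by -0.06 ± 0.12, none past the threshold. The Hey1 value averages group means that moved in opposite directions by label. Under the wild-type label mean Hey1 was lower at day 21, at 42.9 CPM beside 57.7 CPM at day 0. Under the knockout label it was higher, at 39.7 CPM beside 32.2 CPM. Heyl differed by 0.08 ± 0.10 (adjusted p = 0.536) and by 0.19 (adjusted p = 0.0366) without the library labelled wild type replicate 1 of day 21.

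**Figure D5:**
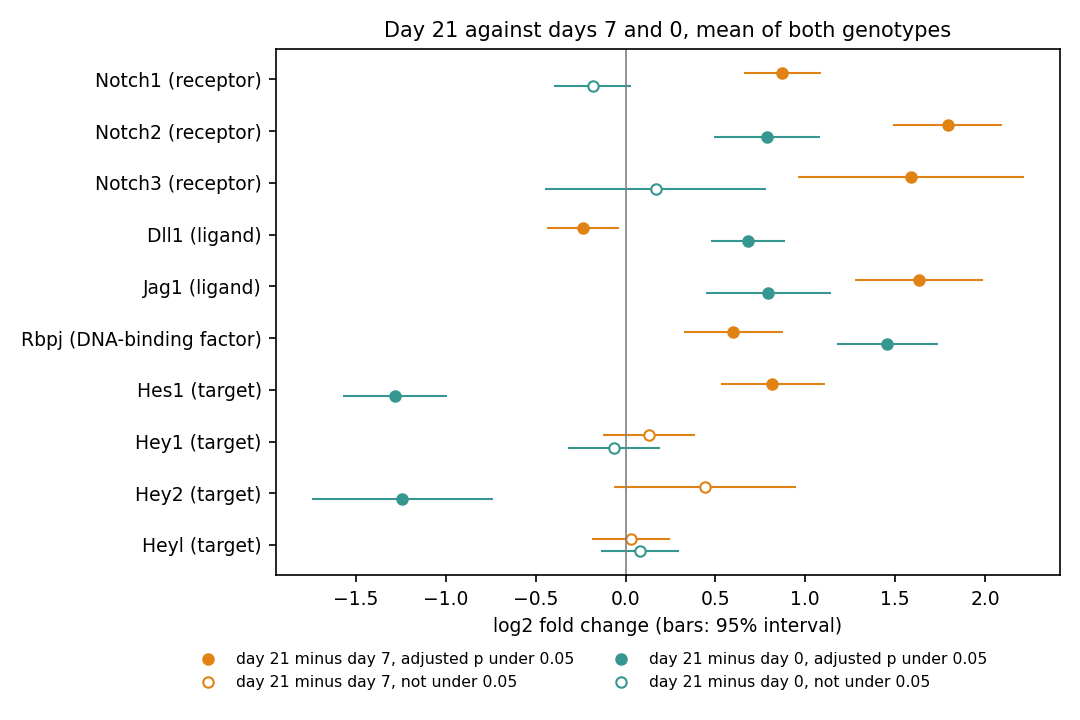
Log2 fold change of day 21 against day 7 and against day 0, as the mean of both genotypes (horizontal axis), for each of the 10 genes, with 95% intervals as bars and filled points for an adjusted p under 0.05. The receptors, Jag1, Rbpj and Hes1 lie right of 0 against day 7, and Hes1 and Hey2 lie left of 0 against day 0.

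Markers moved with day 21 as well. From day 7, all 8 cycling and all 6 measured myocyte markers fell, and of the 7 mural markers 4 rose and 1 fell, with mural sums of 2711 to 4036 TPM. All 4 glial markers rose from day 7, and of the 7 fibro-adipogenic markers 4 rose and 2 fell. Against day 0, all 8 satellite cell markers were higher at day 21, with sums of 1181 to 1553 TPM, and all 4 glial markers were lower, with sums of 253 to 361 TPM. Of the 7 fibro-adipogenic markers 4 were higher and 1 lower than at day 0, and of the 7 mural markers 2 were higher and 2 lower. The skin marker sum at day 21 was 35.2 and 135 TPM under the wild-type label, below the 258 and 277 TPM of wild type at day 0, and 84.4 and 77.0 TPM under the knockout label, above the 2.37 and 2.70 TPM of knockout at day 0. The fit on the mean of both genotypes called 5 of the 6 skin markers higher than at day 0, although for 0 of the 6 were the libraries of one day all above those of the other. What these shifts contribute to the Notch gene values was not tested.

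By label, none of the 10 genes was called between the genotypes at day 21, where 0.0126% of all tested genes were. With edgeR 2 of the 10, Rbpj and Heyl, had an unadjusted p under 0.05, beside 14.2% of all tested genes, and DESeq2 called 0. Rbpj, at 59.2 and 68.6 CPM in the libraries labelled knockout and 96.6 and 79.8 CPM in those labelled wild type, was the 1 gene of the 10 without overlap, as were 38% of all tested genes, with a log2 fold change of -0.46 ± 0.18 (adjusted p = 0.281). Notch3 differed by -0.42 ± 0.38 by label (adjusted p = 0.667) and by -1.52 (adjusted p = 0.0019) without both doubtful libraries, which leaves 1 library a genotype whose spread is assumed to be that of the other groups. Heyl differed by -0.32 ± 0.14 (adjusted p = 0.334), by -0.48 (adjusted p = 0.0199) without both and by -0.54 (adjusted p = 0.0156) without the library labelled wild type replicate 1.

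The wider pathway was read from a list of 64 other genes, which holds further receptors and ligands, the enzymes that modify, ubiquitinate or cut them, partners and antagonists of Rbpj, negative regulators, other Hes genes and collagen targets. Of these 59 were tested. From day 0 to day 7 in wild type 24 rose and 11 fell, and in knockout 14 rose and 17 fell, with median log2 fold changes of 0.31 and 0.07 over the 59. That is 40.7% higher and 18.6% lower in wild type, beside 25.8% and 21.2% of all tested genes, and 23.7% higher and 28.8% lower in knockout, beside 24.7% and 22.2%. All 5 collagen genes rose in wild type and 4 of the 5 in knockout. Type V and type VI collagen genes are known to be Notch targets of resting muscle stem cells, and are also made in quantity by connective tissue cells.

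Col5a2 rose by 2.52 ± 0.13 on the log2 scale in wild type (adjusted p = 7.77e-07) and by 2.11 ± 0.13 in knockout (adjusted p = 1.02e-06). Col6a2 rose by 2.05 ± 0.12 and 2.78 ± 0.12, and Col6a1 by 1.87 ± 0.12 and 2.37 ± 0.12. Thus the called collagen genes moved opposite to Hes1 and Hey2 after injury. Tle1, Tle2 and Tle4, which encode corepressors that work with Hes proteins, fell in wild type by 0.72 ± 0.13, 0.73 ± 0.14 and 1.46 ± 0.27. In knockout the most firmly called falls were Aph1b, a part of the gamma-secretase that cuts the receptors, by 0.96 ± 0.12, Maml3, a coactivator of the Notch complex, by 1.25 ± 0.17, and Mib2, a ubiquitin ligase acting on ligands, by 0.86 ± 0.12.

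Between the genotypes at day 0, 15 of the 59 were higher and 8 lower in knockout, 25.4% and 13.6% of them beside 14.8% and 12.6% of all tested genes. Among the higher were Spen, a corepressor partner of Rbpj, by 0.68 ± 0.10 (adjusted p = 0.00153), Aph1a, another gamma-secretase part, by 1.02 ± 0.16 (adjusted p = 0.00184), and Itch, a ubiquitin ligase, by 0.55 ± 0.10 (adjusted p = 0.00315). The lower included Cir1, a corepressor partner, by 0.91 ± 0.15 (adjusted p = 0.00218), Col6a2 by 0.68 ± 0.11 (adjusted p = 0.00256) and Aph1c by 1.16 ± 0.22 (adjusted p = 0.00471). The paralogous gamma-secretase parts Aph1a and Aph1c therefore differed in opposite directions. At day 7 none of the 59 was called between the genotypes with edgeR. An unadjusted p under 0.05 was found for 9 of them, 15.3% beside 14.3% of all tested genes. The interaction passed for 14, 4 higher and 10 lower in knockout, 6.78% and 16.9% of the 59 beside 6.08% and 7.39% of all tested genes. It stood with Spen at -0.93 ± 0.14, Aph1a at -1.39 ± 0.22 and Itch at -0.82 ± 0.14 below 0 and Col6a2 at 0.72 ± 0.16, Hes6 at 0.91 ± 0.21 and Dtx2 at 0.99 ± 0.23 above it.

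From day 7 to day 21, 19 of the 59 rose and 15 fell, 57.6% in all beside 56.8% of all tested genes. The acetyltransferase gene Ep300, a coactivator, rose by 1.39 ± 0.10 and Itch by 0.75 ± 0.07. Hes6, which is known to promote myogenic differentiation, fell by 2.04 ± 0.11, the non-canonical ligand gene Dlk1 by 2.15 ± 0.13 and Neurl1a, a ubiquitin ligase, by 1.75 ± 0.18. Against day 0, 21 of the 59 were higher at day 21 and 6 lower, 45.8% in all beside 45.9% of all tested genes. Col6a2, Col6a1 and Col5a2 were higher by 1.74 ± 0.08, 1.54 ± 0.08 and 1.56 ± 0.09, and Psenen, Poglut1 and Cir1 lower by 0.47 ± 0.09, 0.30 ± 0.07 and 0.42 ± 0.10. By label, none of the 59 was called between the genotypes at day 21 with edgeR. An unadjusted p under 0.05 was found for 15 of them, 25.4% beside 14.2% of all tested genes.

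The 10 genes did not follow one course over the 12 libraries. As a description of log2 CPM, Hes1 and Hey2 correlated at Pearson r of 0.953, Notch1 and Notch3 at 0.904, Notch2 and Notch3 at 0.845, and Notch2 and Jag1 at 0.911. Dll1 ran against the repressor targets, at -0.881 with Hes1 and -0.868 with Hey2. The libraries share groups, depth and the shifts of cell markers, so these values carry no test.

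The gene most like each of the 10, by Pearson r of log2 CPM over the 12 libraries, was Scn7a for Notch1 (0.982), Ubr1 for Notch2 (0.985) and Epas1 for Notch3 (0.979). For the ligands it was Apln with Dll1 (0.981) and Lss with Jag1 (0.982), and for Rbpj it was Ap3b1 (0.967). Among the targets it was Akap17b for Hes1 (0.984), Rplp0 for Hey1 (0.934), Tppp3 for Hey2 (0.979) and Akr1c18 for Heyl (0.902). Over the 8 libraries of days 0 and 7 the same pairs had r between 0.851 for Heyl and 0.996 for Notch2.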

How the data were processed

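RNA was measured in 12 libraries of 6 groups. Per the submitters' processing notes, kallisto 0.46.1 and the builds mm10 and GRCm38.p6 were used; no other step is given in the sources used here. The authors deposited estimated counts per gene, not normalised, TPM for the same 30154 genes, and batch-corrected log2 values of 21782 genes, whose batch is not named.

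Estimated counts were rounded to whole numbers, and filterByExpr of edgeR 4.0.16 left 15890 genes, which were scaled by TMM. One mean per group was fitted to all 12 libraries by the robust quasi-likelihood method (prior count 0.125, 6 residual degrees of freedom). In each of 8 comparisons p-values were adjusted by Benjamini-Hochberg over all genes tested and called under 0.05. The SE is the absolute log2 fold change over the square root of F, and 95% intervals use the t quantile of the fit. Correlations used log2 CPM with a prior count of 2.

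The 10 genes and all lists were chosen with earlier results of these data known. Named besides the 10 were, per comparison, at most the 3 rising and 3 falling called genes of the other pathway list with the smallest adjusted p, the gene most correlated with each of the 10, Sesn1, Sesn2 and marker genes; Pdgfrb, Cspg4 and Myh11 and the zero skin markers were named after their values were seen. One gene so chosen is not reported here.

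Alternatives were DESeq2 1.42.0, its size factors, other filters on counts (none, or at least 10 in every library), a replicate block, limma 3.58.1 on log2 TPM (pseudocount 1 or 0.1, TPM of at least 1 in 2 libraries, or no filter) and on the deposited log2 values, a minimum of 1 on the size of the log2 fold change, days 0 and 7 without day 21, day 21 as 1 group, and leaving out each library. A fit without both doubtful day 21 libraries was added after seeing the data. On simulated counts for knockout against wild type at day 0, 200 of 15484 genes were changed. Their median estimated log2 fold change in edgeR was 1.95 in size. There edgeR recovered 186 with 5 false calls and DESeq2 190 with 18. With limma on log2(CPM + 1), 187 were recovered with 6 false calls among 15890. Smaller changes, such as those of the 10 genes at day 0, and the wide spread of day 21 were not simulated. The limma fits to TPM and to the deposited log2 values were not simulated either. Near copies were sought with BLAST 2.17.0 among GENCODE M21 transcripts. Analyses ran in R 4.3.3, with figures in matplotlib 3.10.9 under Python 3.11.15. Each of the 10 genes had at least 145 estimated counts in every library.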

Additional observations from a re-analysis of the deposited data

Results flagged for a closer look

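The change from day 0 to day 7 differed between the genotypes, by the interaction test of edgeR, for 4 of the 10 genes, beside 13.5% of all tested genes. With limma on log2 TPM the count was 1 at either pseudocount and 0 without a filter. All but the Notch2 call were also lost in most fits that left out a library of day 0 or day 7. On the log2 scale the knockout change minus the wild-type change was -0.76 for Notch1, -1.34 for Notch2 and -0.91 for Rbpj, all 3 of which were higher in knockout before injury. It was 0.79 for Hey1, which was lower in knockout before injury. The same day 0 libraries enter both statements, and mural markers differed between the genotypes on that day; the part of this in the interaction was not tested.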

How the results depend on the processing

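Of the 80 fold changes of the 10 genes (8 comparisons) 36 were called, and under the alternatives run none of these changed sign and 17 kept the call under every one. Of the other fold changes 24 changed sign under at least 1 alternative, 0 of them with a call there. With limma on log2 TPM (pseudocount 1, 0.1, no filter) signs changed in knockout at day 7 for Heyl (0.162, 0.164, 0.162), between the genotypes at day 0 for Hes1 (0.011 each) and Hey2 (0.012, 0.013, 0.012) and at day 7 for Dll1 (-0.203, -0.212, -0.203), in the interaction for Dll1 (-0.119, -0.12, -0.119) and Hey2 (-0.007, -0.005, -0.007), from day 7 to 21 for Heyl (-0.002 each), from day 0 to 21 for Notch1 (0.131, 0.139, 0.131) and Hey1 (0.075, 0.079, 0.075), and by label at day 21 for Jag1 (0.041, 0.044, 0.041) and Hes1 (0.07 each). On the deposited log2 values they changed for Heyl in wild type (-0.038), in knockout (0.052) and in the interaction (0.09), for Dll1 at day 7 (-0.141) and in the interaction (-0.012), for Notch1 from day 0 to 21 (0.05), and by label at day 21 for Jag1 (0.039) and Hes1 (0.037); with at least 10 counts in every library Heyl in knockout was 0.007. Without both doubtful libraries they changed from day 0 to 21 for Notch3 (-0.091) and Hey1 (0.111), and by label for Notch1 (-0.133), Notch2 (-0.079) and Hey1 (0.046). Ranges that cross 0 with a library left out were, for Heyl in knockout, -0.092 to 0.082; for Hey2 at day 0 between the genotypes, -0.104 to 0.035; at day 7, for Dll1 -0.094 to 0.187, Jag1 -0.037 to 0.29, Hey1 -0.144 to 0.039 and Hey2 -0.129 to 0.241; for Hey2 in the interaction, -0.093 to 0.278; for Heyl from day 7 to 21, -0.104 to 0.16; from day 0 to 21, for Notch3 -0.237 to 0.425, Hey1 -0.214 to 0.067 and Heyl -0.051 to 0.19; and by label at day 21, for Notch1 -0.03 to 0.244, Notch3 -1.234 to 0.089, Dll1 -0.008 to 0.292, Jag1 -0.414 to 0.386, Hes1 -0.31 to 0.259, Hey1 -0.428 to 0.134 and Hey2 -0.717 to 0.512. In wild type from day 0 to day 7 the count of 7 genes called became 4 with limma on log2 TPM at pseudocounts of 1 and 0.1 and without a filter (Notch1, Jag1 and Hey1 lost), 3 with a minimum of 1 on the size of the log2 fold change, and 5 to 8 with a library left out. In knockout it was 6 to 8 with a library left out. At day 0 the count of 5 between the genotypes became 3 with limma on log2 TPM without a filter, 2 with the fold minimum, and 3 to 6 with a library left out. At day 7 the count of 0 became 1 in the fit without day 21, and was 0 with any library left out. The interaction count of 4 became 1 with limma on log2 TPM at either pseudocount, 0 without a filter, 2 on the deposited log2 values, 1 with the fold minimum, and 0 to 4 with a library left out. From day 7 to day 21 the count of 7, and from day 0 to day 21 the count of 6, became 3 with the fold minimum, and each was 6 to 7 with a library left out. By label at day 21 the count of 0 became 2 without both doubtful libraries, and 0 to 1 with a library left out. Over all genes, calls in wild type fell from 7468 to 3665, in knockout from 7450 to 3709, at day 0 from 4356 to 1495, from day 7 to 21 from 9028 to 3224 and from day 0 to 21 from 7289 to 1742 with the fold minimum. At day 7 the 280 genes called between the genotypes were 787 with DESeq2, 138, 110 and 101 with limma on log2 TPM (pseudocount 1, 0.1, no filter), 825 on the deposited log2 values, 89 with the fold minimum and 1169 in the fit without day 21, and the 2141 of the interaction were 1356, 1334 and 1096 with the 3 limma fits, 1095 with the fold minimum and 3887 in the fit without day 21. By label at day 21 the 2 genes were 471 with DESeq2, 57 without a filter, 23 with at least 10 counts, 1 with the replicate block, 0 and 14 with limma at a pseudocount of 0.1 and without a filter, 176 on the deposited log2 values and 1200 without both doubtful libraries. Leaving out a library gave 5172 to 7970, 5520 to 7980, 1667 to 5166, 15 to 619, 582 to 2852, 8030 to 8990, 5776 to 7362 and 0 to 865 genes in the order wild type, knockout, day 0, day 7, interaction, day 21 against 7, against 0, and by label. Where a setting leaves fewer libraries or adds a minimum fold, that construction is the difference; the cause of the other changes was not tested. The labels do not say whether replicate numbers pair the libraries. Deviations of same-numbered libraries correlated across genes at -0.143 to 0.07 over 15 group pairs. A batch shared by part of the libraries or genes was not tested. With the replicate block the counts of genes called were 7, 7, 5, 0, 3, 7, 6 and 0 in the same order, with Hey1 lost from the interaction (0.79, adjusted p = 0.0637).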
